A study of Mus musculus with 6 samples.

Results

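KPC490 is 1 of 6 mouse pancreatic ductal adenocarcinoma (PDAC) cell lines whose messenger RNA was sequenced, and its transcripts are set here against those of KPC142, KPC180, KPC469, KPC630 and KPC850. The genes described were chosen by level: of 56953 genes in the table, 10234 reached at least 10 CPM (counts scaled to a common library total) in any line, and 105 of these lay at least 2-fold above the highest or below the lowest of the other 5 lines in KPC490. Each line was sequenced as 1 library, so no difference below has a replicate check and no test was made. All 6 lines carry the same labels, PDAC cells derived from the KPC mouse strain, and they differ in name alone. The labels do not give the alleles, the animals or the clonal history of any line, nor which lines draw few or many CD8+ T cells into a tumour, the property the study set out to compare. A difference of KPC490 from the other lines can therefore not be told apart from a difference of this library, culture or animal.

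PDAC cells descend from the epithelium of the exocrine pancreas and keep ductal keratins, and many also express products of the gastric and intestinal lining. Such lines differ in how far they hold an epithelial form, in the matrix they secrete and in the signals they send to immune cells.

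Library totals ran from 16471558 to 18701274 counts, with 17206224 in KPC490, where 1 count was worth 0.0581 CPM. Of the 10 ductal markers listed, 9 reached 10 CPM in a line, and KPC490 lay inside the range of the other lines for each of the 9. Krt19, a keratin of duct cells, stood at 2062 CPM in KPC490, against 837 to 2755 CPM in the other lines. Of the markers of other cell types, 12 of 14 T and NK cell genes and 7 of 8 B cell genes had 0 counts in KPC490, and the highest fibroblast marker was Pdgfra at 0.407 CPM. Markers of further types were not all near 0: in KPC490 the fat cell gene Cidec had 13.6 CPM, the nerve cell gene Map2 4.70 CPM, the acinar gene Cela1 3.43 CPM and the endothelial gene Flt1 3.31 CPM, and each had a higher level in at least 1 other line. The summed level of the 13 macrophage genes was 149.0 CPM in KPC490, against 99.3 to 216.5 CPM in the other lines, and most of it was Mrc1 at 89.3 CPM and Cd14 at 58.1 CPM in KPC490. The other line closest to KPC490 was KPC630, with a Spearman correlation across genes of 0.940, and the lowest correlation was with KPC469, at 0.888. By the median absolute log2 difference KPC630 was again closest (0.296), and the most distant was KPC142 (0.415), ahead of KPC469 (0.387). Genes are not independent replicates, and these correlations are descriptions.

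In KPC490, 21 genes lay at least 4-fold above the highest other line (0.205% of the genes examined) and 10 lay at least 4-fold below the lowest (0.0977%). At 2-fold these counts were 58 genes higher (0.567%) and 47 lower (0.459%). Of the 105 genes, 102 code for proteins. Of the 21 genes higher at 4-fold, 19 reached 10 CPM in KPC490 alone, as did 37 of the 58 at 2-fold, and for such a gene the choice by level already places KPC490 highest. The genes at 2-fold outside the range of all other lines numbered 105 in KPC490, against 83 in KPC630, 162 in KPC850, 225 in KPC180, 245 in KPC142 and 445 in KPC469, so KPC490 and KPC630 had the fewest. The counts depend on which lines KPC490 is set against. Leaving a line out can only keep or raise these counts and the folds below, since fewer lines then set the range. Without KPC630, its closest relative, 45 genes were higher at 4-fold and 106 at 2-fold. Without KPC469 the 4-fold lower count was 16, the 2-fold higher count 91 and the 2-fold lower count 73. Without KPC850 the lower counts were 17 and 71. At the margins of the rule, Galnt18 (4.04-fold) and Nrbp2 (4.16-fold) lay just inside the higher 4-fold limit and Tfr2 (3.91-fold) and Slc7a3 (3.68-fold) just outside it. Gsn (4.07-fold) and Sipa1l2 (4.13-fold) lay just inside the lower 4-fold limit, with Fer1l4 (3.82-fold) and Alpi (3.75-fold) outside. At 2-fold, Ctsc (2.002-fold) and Rnf103 (2.003-fold) were inside and Exosc4 and Eid2 (1.99-fold each) outside on the higher side. On the lower side Cby1 and Clic5 (2.02-fold each) were inside, and Fam160a1 (1.998-fold) and Kalrn (1.99-fold) outside.

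**Figure D1:**
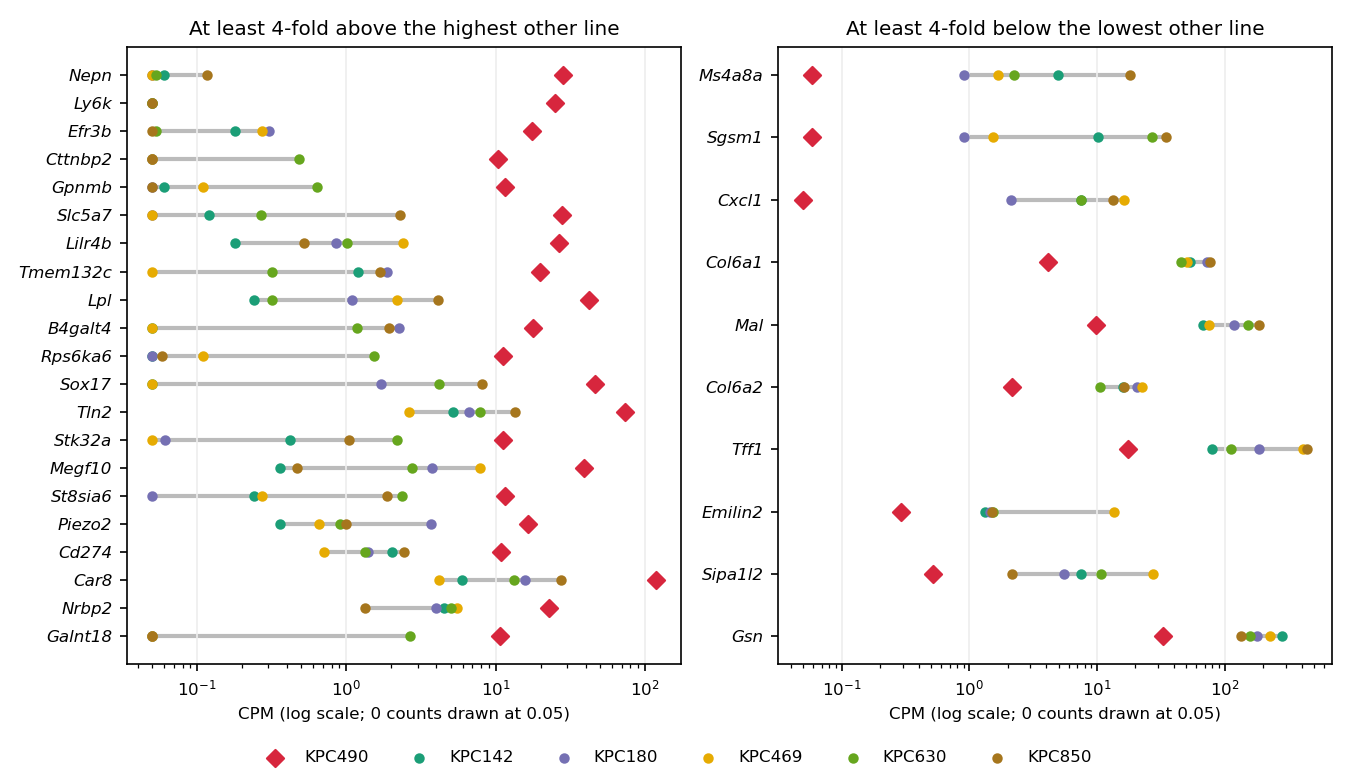
Levels in CPM, on a log axis, of the 21 genes at least 4-fold above (left) and the 10 at least 4-fold below (right) every other line in KPC490, with 1 point per library. Red diamonds are KPC490, coloured circles the other 5 lines, and grey bars span those 5. Nepn, Ly6k and Efr3b are near 0 in the other lines, whereas Tln2 and Car8 are measured in each of them.

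The genes farthest above the other lines were Nepn, Ly6k and Efr3b. Nepn, which codes for a secreted leucine-rich repeat proteoglycan, had 28.3 CPM (487 counts) in KPC490, against 0.117 CPM in KPC850, 0.0599 in KPC142, 0.0532 in KPC630 and 0 in KPC180 and KPC469. Its level in KPC490 was 243-fold that of KPC850, with a 95% counting interval of 66.8 to 2009, and without KPC850 it was 472-fold that of KPC142 (84.3 to 18682). Ly6k, a lipid-anchored surface protein of the Ly6/uPAR family known for its part in sperm function, had 24.9 CPM (429 counts) in KPC490 and 0 counts in each other line. Set against a floor of 3 counts per library, it was at least 137-fold higher. The counting interval against KPC142, which uses no floor, began at 112-fold. Efr3b, a scaffold that holds the phosphatidylinositol 4-kinase PI4KA at the plasma membrane, had 17.7 CPM (304 counts) in KPC490, against 0.303 CPM in KPC180, 0.272 in KPC469, 0.180 in KPC142, 0.0532 in KPC630 and 0 in KPC850. It was 58.2-fold above KPC180 (24.7 to 180). Each of the 3 had 304 counts or more in KPC490 and 5 counts or fewer in any other library.

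The stretches of 250 bases before the start sites of Nepn, Efr3b and the checkpoint ligand gene Cd274 are shown because they show how these genes differ in CG content. They are RefSeq sequence on GRCm38.p6, written 5′ to 3′ on the strand of the gene, and capitals mark CG dinucleotides. Nepn lies at chr10:52391358-52391607 (plus strand), Efr3b at chr12:4038916-4039165 (minus strand) and Cd274 at chr19:29367188-29367437 (plus strand).
Nepn: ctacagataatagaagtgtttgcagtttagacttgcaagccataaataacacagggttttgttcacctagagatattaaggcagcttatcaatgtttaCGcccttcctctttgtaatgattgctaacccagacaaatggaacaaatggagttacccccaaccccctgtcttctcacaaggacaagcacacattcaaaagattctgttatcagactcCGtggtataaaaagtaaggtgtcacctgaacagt
Efr3b: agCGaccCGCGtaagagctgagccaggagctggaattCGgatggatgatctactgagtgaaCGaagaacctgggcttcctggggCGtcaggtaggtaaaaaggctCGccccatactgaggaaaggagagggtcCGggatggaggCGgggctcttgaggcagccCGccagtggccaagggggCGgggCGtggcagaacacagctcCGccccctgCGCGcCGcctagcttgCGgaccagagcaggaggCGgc
Cd274: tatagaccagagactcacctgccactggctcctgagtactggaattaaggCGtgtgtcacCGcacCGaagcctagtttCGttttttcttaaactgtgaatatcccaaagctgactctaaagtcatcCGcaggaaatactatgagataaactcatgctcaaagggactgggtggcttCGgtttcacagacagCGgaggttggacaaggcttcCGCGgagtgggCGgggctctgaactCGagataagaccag
Nepn held 2 CG dinucleotides in 40.4% GC, 0.20 of the number its base composition predicts, and a TATAAA motif began at position -29 from the start site. Efr3b held 18 CG dinucleotides in 65.2% GC (ratio 0.70), with GGGCGG at positions -72 and, on the other strand, -47. Cd274 held 11 in 50.4% GC (ratio 0.70), with GGGCGG at position -31. The stretch of Nepn was thus poor in CG with a TATA motif, and those of Efr3b and Cd274 were richer in CG. No DNA methylation or chromatin was measured here.

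Cd274 codes for PD-L1, the ligand that restrains T cells through PD-1. It stood at 10.8 CPM (186 counts) in KPC490, against 2.45 CPM in KPC850, 2.04 in KPC142, 1.40 in KPC180, 1.33 in KPC630 and 0.708 in KPC469. KPC490 was 4.41-fold above KPC850 (3.14 to 6.32), and the other lines were themselves spread between 0.708 and 2.45 CPM. Ceacam1, a cell adhesion molecule that is also a ligand of TIM-3, stood at 65.98 CPM in KPC490, against 21.4 CPM in KPC850, 18.9 in KPC630, 3.40 in KPC180, 3.32 in KPC469 and 1.56 in KPC142, 3.08-fold above the next line (2.74 to 3.48). Of 16 genes at 10 CPM on a list of checkpoint ligands and inhibitors of T cells, KPC490 was highest for 4, namely Cd274, Ceacam1, the nectin-like Pvr and Cd24a, and lowest for 2, Cd47 and Lgals1. Cd274 reached 10 CPM in KPC490 alone, and among the other 15 genes KPC490 was highest for 3. Over all genes KPC490 was highest for 15.3% and lowest for 11.8%. The list's median difference was 0.00 log2 units from the median of the other lines.

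Il1rn, the secreted antagonist of the interleukin-1 receptor, stood at 840.0 CPM in KPC490, against 259.3 CPM in KPC850, 227.4 in KPC630, 54.5 in KPC469, 28.7 in KPC180 and 18.4 in KPC142. KPC490 was 3.24-fold above KPC850 (3.13 to 3.35), and KPC850 and KPC630 stood apart from the remaining lines. Cxcl1, a chemokine that draws neutrophils, went the other way, with 0 counts in KPC490, against 16.4 CPM in KPC469, 13.3 in KPC850, 7.56 in KPC630, 7.55 in KPC142 and 2.12 in KPC180. Against the floor of 3 counts Cxcl1 was at least 12.2-fold lower than in KPC180, and without KPC180 at least 43.3-fold lower. The counting interval against KPC180, which uses no floor, began at 9.40-fold. Csf1, the growth factor of macrophages, was at 7.84 CPM in KPC490 and 12.7 to 103.7 CPM in the other lines. KPC490 was lowest for 4 of 12 chemokines and myeloid growth factors, Cxcl1, Csf1, Ccl25 and Ppbp, and highest for Mif (347 CPM, against 121 to 207 CPM) and Vegfa (184 CPM, against 80.2 to 161.2 CPM). Of all genes it was lowest for 11.8% and highest for 15.3%. Lilr4b, an immunoglobulin-like receptor of leukocytes, had 26.4 CPM in KPC490, against 2.40 CPM in KPC469, 1.01 in KPC630, 0.850 in KPC180, 0.525 in KPC850 and 0.180 in KPC142. It was 11.02-fold above KPC469 (8.08 to 15.4), or 26.1-fold above the next line when KPC469 was left out. Its transcripts share 95.4% identity over 3786 bases with Lilrb4a, which had 0.290 CPM in KPC490. How reads common to such a pair were shared out is set by the authors' counting, so the split between them is uncertain.

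The endoderm transcription factors Sox17 and Eomes were among the higher genes. Both reached 10 CPM in KPC490 alone, so the choice by level already places KPC490 highest for them. Sox17, which drives endoderm formation in the embryo, had 46.0 CPM in KPC490, against 8.10 CPM in KPC850, 4.15 in KPC630, 1.70 in KPC180 and 0 in KPC142 and KPC469. It was 5.68-fold above KPC850 (4.74 to 6.85), and 11.1-fold above KPC630 with KPC850 left out. Eomes, a T-box factor of early endoderm and mesoderm, stood at 11.2 CPM in KPC490 and at 0.175 to 4.30 CPM in the other lines. On a list of 23 pancreatic and endodermal lineage factors at 10 CPM, KPC490 was highest for 6 and lowest for 1, against 15.3% and 11.8% of all genes. The list's median difference was 0.36 log2 units. Sox17 entered the list through KPC490 alone, which leaves 5 of 22, and Eomes was not on the list. Cdx2, the intestinal homeobox factor, stood at 103 CPM in KPC490, against 7.83 to 62.9 CPM in the other lines. Foxa1, a pioneer factor of endodermal organs, was also highest in KPC490, and its relative Foxa2 was lowest there at 64.9 CPM, against 73.3 to 98.9 CPM.

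Several higher genes, grouped here after their values were seen, code for enzymes of sugar chains. Enzymes of this kind inside the range of the other lines or below it were not counted. B4galt4, St8sia6 and Galnt18 reached 10 CPM in KPC490 alone. B4galt4, a galactosyltransferase, had 17.7 CPM in KPC490, against 2.25 CPM in KPC180, 1.92 in KPC850, 1.17 in KPC630 and 0 in KPC142 and KPC469, 7.89-fold (5.60 to 11.4). St8sia6, a sialyltransferase, had 11.6 CPM in KPC490 and 2.34 CPM or less in the other lines, 4.93-fold (3.54 to 7.0). Galnt18, of the family that starts O-linked sugar chains, had 10.7 CPM in KPC490, 2.66 CPM in KPC630 and 0 counts in the other 4 lines. Its 4.04-fold (2.94 to 5.63) thus rested on KPC630, and without that line it was at least 59.0-fold higher. Fut2, a fucosyltransferase that makes H antigen, had 22.4 CPM in KPC490 and 0.121 to 11.02 CPM elsewhere. Tsta3, which makes GDP-fucose, had 156.2 CPM in KPC490 and 51.3 to 72.7 CPM elsewhere.

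Several of the higher genes act at the membrane or on the cytoskeleton. Tln2, a talin that links integrins to actin, had 74.1 CPM in KPC490, against 13.4 CPM in KPC850, 7.83 in KPC630, 6.61 in KPC180, 5.21 in KPC142 and 2.62 in KPC469, 5.52-fold (4.80 to 6.38), or 9.46-fold without KPC850. Piezo2, a stretch-gated ion channel, had 16.4 CPM in KPC490, against 3.70 CPM in KPC180 and under 1 CPM in the other 4 lines, 4.42-fold (3.34 to 5.94), or 16.5-fold without KPC180. Slc5a7, the choline transporter of cholinergic nerves, had 27.8 CPM in KPC490, against 2.27 CPM in KPC850 and 0.266 CPM or less in the other 4 lines, 12.2-fold (8.82 to 17.4), or 105-fold without KPC850. Megf10, a receptor for engulfment of dying cells, had 39.4 CPM in KPC490 and 0.36 to 7.85 CPM elsewhere, 5.02-fold (4.19 to 6.05), or 10.5-fold without KPC469. Cttnbp2, a cortactin-binding protein of nerve cells, had 10.4 CPM in KPC490 and 0.479 CPM in KPC630, with 0 counts in the other 4 lines, 21.7-fold (11.2 to 48.2). Gpnmb, a glycoprotein of lysosomes and melanosomes, had 11.6 CPM in KPC490 and 0.639 CPM or less elsewhere, 18.1-fold (10.1 to 35.6). For both the line that set the fold was KPC630. Without it Cttnbp2 was at least 57.1-fold higher and Gpnmb 106-fold (29.0 to 882).

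The remaining genes at 4-fold act in metabolism and signalling. Lpl, the lipase that releases fatty acids from lipoproteins, had 42.5 CPM in KPC490, against 4.14 CPM in KPC850, 2.18 in KPC469, 1.09 in KPC180, 0.319 in KPC630 and 0.240 in KPC142, 10.3-fold (8.03 to 13.3), or 19.5-fold without KPC850. Car8, a carbonic anhydrase relative without enzyme activity, had 118.0 CPM in KPC490, against 27.5 CPM in KPC850, 15.8 in KPC180, 13.3 in KPC630, 5.99 in KPC142 and 4.20 in KPC469, 4.30-fold (3.88 to 4.76), or 7.45-fold without KPC850. Rps6ka6, a kinase of the ribosomal S6 kinase family, had 11.3 CPM in KPC490, 1.54 CPM in KPC630 and 0.109 CPM or less elsewhere, 7.30-fold (4.92 to 11.2), or 103-fold without KPC630 (28.2 to 860). Nrbp2, a pseudokinase, had 22.9 CPM in KPC490 and 1.34 to 5.50 CPM elsewhere, 4.16-fold (3.33 to 5.23). Stk32a, a kinase, had 11.2 CPM in KPC490 and 2.18 CPM or less elsewhere (5.14-fold, 3.65 to 7.38, or 10.7-fold without KPC630). Tmem132c, a membrane protein, had 19.9 CPM in KPC490 and 1.88 CPM or less elsewhere (10.6-fold, 7.32 to 15.8). Of the 21 genes, 14 had the lower bound of the counting interval above 4-fold too.

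Among the lower genes, several code for the extracellular matrix. Col6a1, a chain of collagen VI, had 4.12 CPM (71 counts) in KPC490, against 77.4 CPM in KPC850, 72.3 in KPC180, 53.3 in KPC142, 50.5 in KPC469 and 45.3 in KPC630. The other lines lay within a narrow band, and KPC490 was 10.99-fold below the lowest of them (8.62 to 14.2). Col6a2, the partner chain and its next expressed neighbour on chromosome 10, had 2.15 CPM in KPC490, against 22.5 CPM in KPC469, 20.6 in KPC180, 16.3 in KPC850, 16.1 in KPC142 and 10.5 in KPC630. It was 4.91-fold below KPC630 (3.44 to 7.17), and 7.50-fold below the next line without KPC630. The third chain, Col6a3, did not reach 10 CPM in any line and had 0 counts in KPC490, against 0.233 to 1.58 CPM in the other lines. Col4a1 and Col4a2, the chains of basement membrane collagen, were lowest in KPC490 as well, at 292 CPM (Col4a1) and 164 CPM (Col4a2), against 379 to 721 CPM (Col4a1) and 290.1 to 468 CPM (Col4a2) in the other lines. Over 11 collagen genes at 10 CPM, KPC490 was highest for 0 and lowest for 4, against 15.3% and 11.8% of all genes. Their median difference was -0.92 log2 units, the lowest median of the lists with at least 10 genes. Col7a1 and Col18a1 lay above the median of the other lines.

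The stretches before the 2 collagen VI genes are shown because the genes are neighbours that both lay below every other line in KPC490. Col6a1 lies at chr10:76726045-76726294 and Col6a2, for which RefSeq lists 2 start sites and the first is taken, at chr10:76623405-76623654, both on the minus strand of GRCm38.p6, written and marked as above.
Col6a1: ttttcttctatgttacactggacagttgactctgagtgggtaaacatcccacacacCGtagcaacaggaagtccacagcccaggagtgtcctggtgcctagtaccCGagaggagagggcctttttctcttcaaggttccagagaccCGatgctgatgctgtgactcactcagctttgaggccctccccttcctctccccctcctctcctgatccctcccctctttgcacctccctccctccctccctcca
Col6a2: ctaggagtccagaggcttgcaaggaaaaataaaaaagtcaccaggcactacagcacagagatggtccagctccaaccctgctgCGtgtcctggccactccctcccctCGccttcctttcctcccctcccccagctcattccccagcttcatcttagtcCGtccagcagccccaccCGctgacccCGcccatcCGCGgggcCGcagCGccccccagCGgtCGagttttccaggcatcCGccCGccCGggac
Col6a1 held 3 CG dinucleotides in 56.0% GC (ratio 0.17) and a TGANTCA motif, the letters AP-1 factors bind, at position -90. Col6a2 held 14 in 64.4% GC (ratio 0.61), with GGGCGG on the other strand at positions -67, -15 and -11. The stretches of these neighbours were thus of unlike type.

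Further matrix genes were lower at 2-fold or more. Sparc, a collagen-binding matricellular protein, had 1.74 CPM in KPC490, against 36.6 CPM in KPC469, 17.9 in KPC142, 14.99 in KPC180, 8.04 in KPC630 and 5.54 in KPC850, 3.18-fold below KPC850 (2.09 to 4.96). Tnxb, a tenascin, had 2.03 CPM in KPC490 and 7.13 to 20.3 CPM elsewhere, 3.51-fold (2.40 to 5.25), or 6.51-fold without KPC630. Olfml2b, an olfactomedin-like secreted protein, had 5.75 CPM in KPC490 and 20.98 to 74.1 CPM elsewhere, 3.65-fold (2.92 to 4.59). Pxdn, the peroxidase that cross-links collagen IV, had 27.4 CPM in KPC490 and 67.0 to 198.1 CPM elsewhere, 2.44-fold (2.19 to 2.73). Emilin2 (0.290 CPM in KPC490, 1.32 to 13.6 CPM elsewhere) and Ltbp2 (0.523 CPM in KPC490, 1.74 to 16.6 CPM elsewhere) are proteins of elastic fibres, and their folds of 4.54 (1.68 to 15.3) and 3.32 (1.53 to 7.98) rested on 5 counts (Emilin2) and 9 counts (Ltbp2) in KPC490. Without KPC142 Ltbp2 was 12.1-fold lower. Tnc, another tenascin, went against the rest at 13.5 CPM in KPC490, against 4.47 CPM in KPC630, 3.34 in KPC180, 2.07 in KPC469, 0.991 in KPC850 and 0.479 in KPC142, 3.01-fold above KPC630 (2.34 to 3.91). On a list of 23 matrix proteoglycans and glycoproteins, KPC490 was highest for 2, Nepn and Tnc, and lowest for 5 (15.3% and 11.8% over all genes). Both Nepn and Tnc reached 10 CPM in KPC490 alone, so among the other 21 genes it was highest for 0. Each of 14 fibroblast and pericyte markers was under 1 CPM in KPC490, and their sum was 1.45 CPM, against 1.26 to 10.8 CPM in the other lines.

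Among the lower genes were also some of the secretory epithelium and of the actin cytoskeleton. Mal, a raft protein of apical transport, had 9.87 CPM in KPC490, against 186.1 CPM in KPC850, 153.7 in KPC630, 118.9 in KPC180, 75.8 in KPC469 and 67.3 in KPC142, 6.82-fold below KPC142 (5.8 to 8.06). Tff1, a trefoil peptide of gastric mucus, had 17.5 CPM in KPC490, against 440.3 CPM in KPC850, 410.5 in KPC469, 184.9 in KPC180, 111.5 in KPC630 and 80.2 in KPC142, 4.59-fold below KPC142 (4.05 to 5.22). Its next neighbour Tff2 had 0.290 CPM in KPC490 and 0.659 to 23.4 CPM elsewhere, 2.27-fold with an interval of 0.727 to 8.33 that includes no difference. The mucin gene Muc5ac was at 0.697 CPM in KPC490, against 1.20 to 12.9 CPM, while Lgals4, a galectin of the gut lining, was highest in KPC490 at 850.2 CPM, against 85.7 to 651 CPM. Over 17 trefoil, mucin and gastric-type genes at 10 CPM, KPC490 was highest for 3 and lowest for 3, against 15.3% and 11.8% of all genes. Their median difference was 0.18 log2 units. Gsn, which codes for the actin-severing gelsolin, had 32.7 CPM in KPC490, against 280.5 CPM in KPC142, 225.1 in KPC469, 178.9 in KPC180, 159.0 in KPC630 and 133.2 in KPC850, 4.07-fold below KPC850 (3.71 to 4.47). Mylk, the myosin light chain kinase, had 2.96 CPM in KPC490 and 7.24 to 56.0 CPM elsewhere, 2.44-fold (1.76 to 3.44), or 7.31-fold without KPC630. On a list of 22 actomyosin genes KPC490 was lowest for 5 and highest for 1 (11.8% and 15.3% over all genes). Palld, an actin-bundling protein, was higher at 133.9 CPM in KPC490, against 5.81 to 51.7 CPM elsewhere, 2.59-fold (2.40 to 2.80).

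Ms4a8a, a membrane protein of the MS4A family, and Sgsm1, a modulator of small G proteins, each had 1 count in KPC490. Ms4a8a stood at 0.0581 CPM in KPC490 and at 0.910 CPM in KPC180 to 18.2 CPM in KPC850. Sgsm1 stood at 0.0581 CPM in KPC490 and at 0.910 CPM in KPC180 to 34.7 CPM in KPC850. Both were 15.7-fold below KPC180, with an interval of 2.41 to 660, and without KPC180 they were 29.1-fold (Ms4a8a, 4.85 to 1185) and 26.3-fold (Sgsm1, 4.34 to 1074) below KPC469. Sipa1l2, a relative of Rap GTPase activators, had 0.523 CPM in KPC490 and 2.16 to 27.6 CPM elsewhere, 4.13-fold (1.96 to 9.72), or 10.6-fold without KPC850. Of the 10 genes lower at 4-fold, 4 had the near bound of the interval past 4-fold, namely Cxcl1, Col6a1, Mal and Tff1. Of the 47 at 2-fold, 18 had it past 2-fold.

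**Figure D2:**
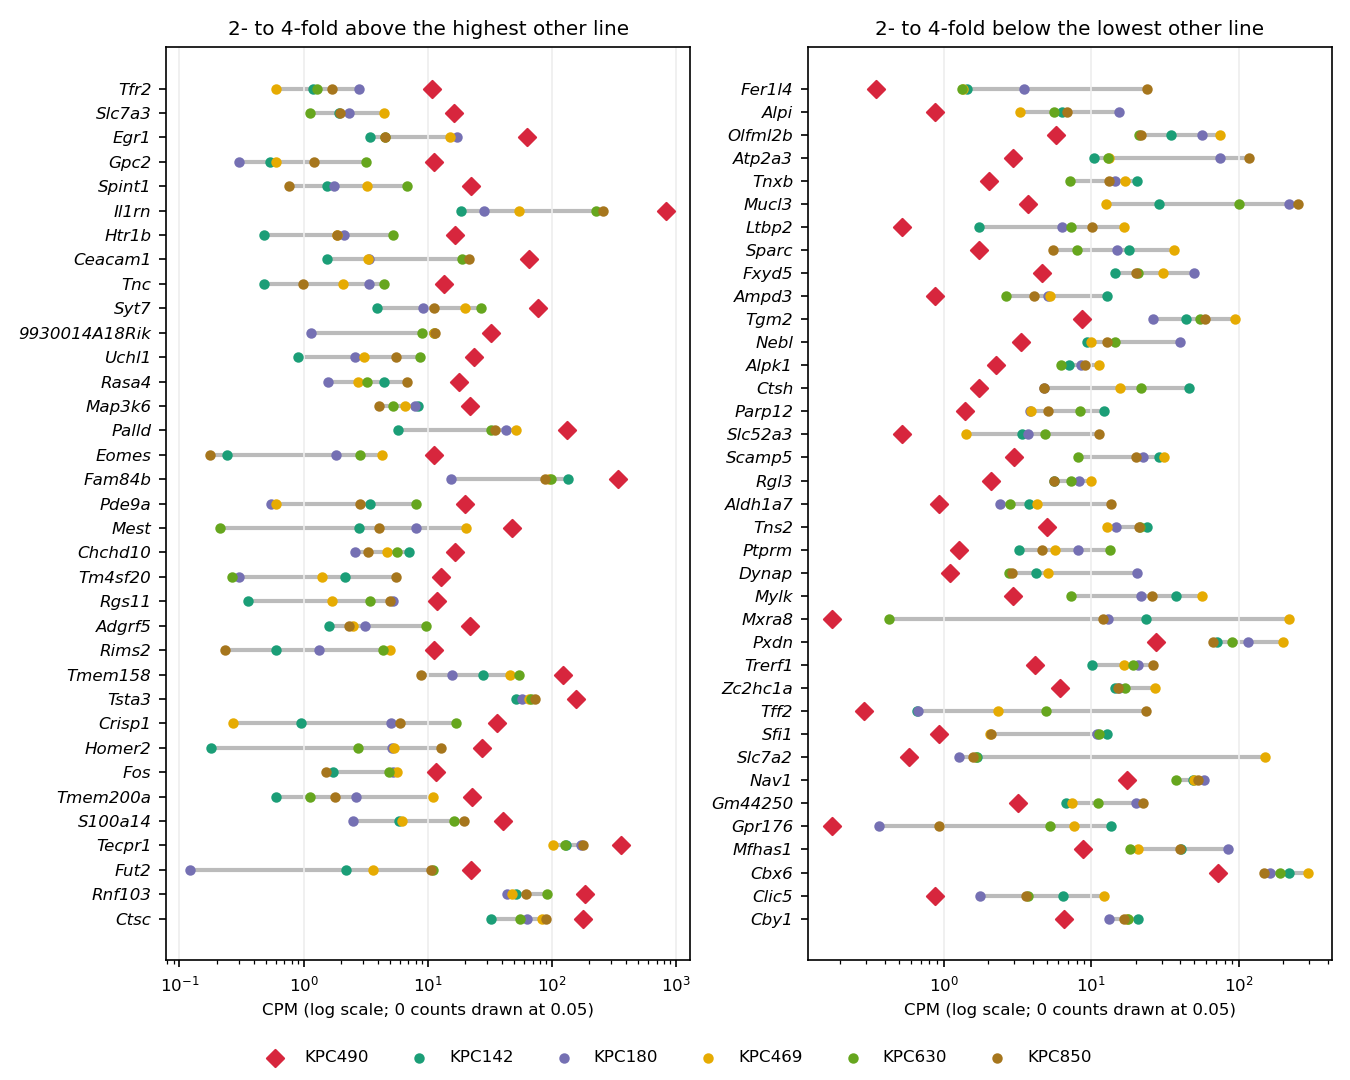
Levels in CPM, on a log axis, of 35 of the 37 genes 2- to 4-fold above (left) and the 37 genes 2- to 4-fold below (right) every other line in KPC490, with 1 point per library. Red diamonds are KPC490, coloured circles the other lines, and grey bars span those 5. Il1rn, Tecpr1 and Fam84b are above 10 CPM in each line, whereas Mxra8, Gpr176 and Slc7a2 rest on 10 counts or fewer in KPC490.

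Among the 37 genes 2- to 4-fold higher were immediate early genes of growth signalling. Egr1 had 63.1 CPM in KPC490, against 17.3 CPM in KPC180, 15.2 in KPC469, 4.55 in KPC850, 4.53 in KPC630 and 3.42 in KPC142, 3.65-fold above KPC180 (3.20 to 4.17). Fos had 11.7 CPM in KPC490 and 1.52 to 5.61 CPM elsewhere, 2.09-fold (1.64 to 2.68). The remaining genes named by fold included Tfr2, a transferrin receptor of iron sensing (10.9 CPM in KPC490, 0.599 to 2.79 CPM elsewhere, 3.91-fold, or 6.46-fold without KPC180), and Slc7a3, an importer of basic amino acids (16.3 CPM in KPC490, 1.12 to 4.41 CPM elsewhere, 3.68-fold, or 7.05-fold without KPC469). Gpc2, a glypican, had 11.3 CPM in KPC490 and 0.303 to 3.19 CPM elsewhere, 3.55-fold, or 9.25-fold without KPC630. Spint1, an inhibitor of epithelial serine proteases, had 22.4 CPM in KPC490 and 0.758 to 6.81 CPM elsewhere, 3.29-fold, or 6.86-fold without KPC630. Htr1b, a serotonin receptor, had 16.5 CPM in KPC490 and 0.479 to 5.22 CPM elsewhere, 3.16-fold, or 7.77-fold without KPC630. Syt7, a calcium sensor of exocytosis, had 77.4 CPM in KPC490, against 27.1 CPM in KPC630, 19.9 in KPC469, 11.3 in KPC850, 9.22 in KPC180 and 3.89 in KPC142, 2.85-fold (2.58 to 3.17).

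Genes with high levels in KPC490 were also among them. Tecpr1, which joins autophagosomes to lysosomes, had 362.9 CPM in KPC490, against 177.7 CPM in KPC850, 173.6 in KPC180, 130.2 in KPC142, 128.3 in KPC630 and 101.5 in KPC469, 2.04-fold (1.95 to 2.13). Fam84b had 339.1 CPM in KPC490 and 15.3 to 136.0 CPM elsewhere, 2.49-fold (2.38 to 2.62). Rnf103, a ubiquitin ligase of the endoplasmic reticulum, had 183.9 CPM in KPC490 and 43.6 to 91.8 CPM elsewhere. Ctsc, a lysosomal protease, had 179.2 CPM in KPC490 and 32.7 to 89.5 CPM elsewhere, while Ctsh, a relative, was 2.74-fold lower at 1.74 CPM, against 4.78 to 46.0 CPM. Tmem158, a gene induced in RAS-driven senescence, had 122.3 CPM in KPC490 and 8.80 to 54.5 CPM elsewhere, 2.24-fold (2.08 to 2.42).

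The 37 genes 2- to 4-fold lower were mixed in kind. Mucl3, a mucin-like protein, had 3.72 CPM in KPC490, against 251.4 CPM in KPC850, 218.4 in KPC180, 100.5 in KPC630, 28.7 in KPC142 and 12.6 in KPC469, 3.40-fold below KPC469 (2.57 to 4.56), or 7.72-fold below KPC142 without KPC469. Atp2a3, a calcium pump of the endoplasmic reticulum, had 2.96 CPM in KPC490 and 10.4 to 116.8 CPM elsewhere, 3.52-fold (2.56 to 4.91). Fxyd5, a regulator of the sodium pump that loosens cell contacts, had 4.65 CPM in KPC490 and 14.6 to 49.5 CPM elsewhere, 3.13-fold (2.42 to 4.09). Tgm2, a protein cross-linking enzyme, had 8.60 CPM in KPC490 and 26.2 to 94.3 CPM elsewhere, 3.04-fold (2.52 to 3.69), or 5.14-fold without KPC180. Cbx6, a Polycomb protein, had 72.0 CPM in KPC490 and 147.1 to 295.0 CPM elsewhere, 2.04-fold (1.91 to 2.19). Alpi, an intestinal alkaline phosphatase (0.871 CPM in KPC490, 3.27 to 15.5 CPM elsewhere, 3.75-fold, or 6.42-fold without KPC469), and Nav1, a protein that guides microtubules (17.5 CPM in KPC490, 37.8 to 58.4 CPM elsewhere), were further members. Mxra8, Gpr176 and Slc7a2 had 3, 3 and 10 counts in KPC490, and their intervals reached below 1. Without KPC630, the lowest of the other lines, Mxra8 was 68.9-fold lower (23.3 to 337).

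Families of the leading genes were followed to their other members. Of the Ly6/uPAR genes, 7 reached 10 CPM in a line, and KPC490 was highest for Ly6k and for Ly6e, which had 703.6 CPM in KPC490, against 482.5 CPM in KPC630, 314.0 in KPC142, 262.8 in KPC850, 218.4 in KPC469 and 16.1 in KPC180. Ly6a had 256.4 CPM in KPC490, below KPC630 at 426.5 CPM and above the 2.25 to 77.8 CPM of the other 4 lines. Ly6c1 had 32.4 CPM in KPC490, below KPC630 at 52.5 CPM and above the 0.121 to 5.75 CPM of the other 4. These genes lie together on chromosome 15, and KPC490 and KPC630 held the upper ranks for Ly6e, Ly6a and Ly6c1, whereas Ly6k was detected in KPC490 alone. In the same cluster, Psca was highest in KPC469 (27.6 CPM, against 16.1 CPM in KPC490). Lynx1 was highest in KPC142 (23.6 CPM, against 18.5 CPM in KPC490). In the complex that Efr3b belongs to, its paralog Efr3a was highest in KPC490 at 233.5 CPM, against 95.5 to 172 CPM, and the kinase Pi4ka lay inside the range of the other lines at 80.7 CPM, against 56.7 to 98.8 CPM. Among 15 genes of the MAL, CMTM and related families, KPC490 was lowest for Mal and Emp2 and highest for Cmtm7 (11.8% and 15.3% over all genes).

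Across 58 pathway lists, those of at least 10 genes with the largest shares of genes highest in KPC490 concerned energy metabolism, sterols and growth signalling. Over all genes the share highest in KPC490 was 15.3% and the share lowest 11.8%. Of 26 glycolysis and lactate genes KPC490 was highest for 11 and lowest for 0, and of 29 hypoxia response genes it was highest for 11 and lowest for 1, with medians of 0.43 and 0.48 log2 units. None of these genes was at 2-fold, and the differences were smaller and spread over many genes. Tpi1, a glycolytic isomerase, had 1374 CPM in KPC490 and 525 to 957 CPM elsewhere. Hk2, a hexokinase, had 271 CPM in KPC490 and 102 to 181.5 CPM elsewhere. Ndrg1, a gene induced in low oxygen, had 264 CPM in KPC490 and 44.2 to 137 CPM elsewhere. Of 33 genes of cholesterol synthesis and uptake KPC490 was highest for 13 and lowest for 1 (Soat1, which stores sterol as ester), with a median of 0.35. Insig1, which senses sterols, had 365 CPM in KPC490 and 63.8 to 331 CPM elsewhere.

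Of 46 genes of RAS-MAPK output and feedback, KPC490 was highest for 14 and lowest for 0 (15.3% and 11.8% over all genes), with a median of 0.25. Egr1 and Fos were the ones at 2-fold, and Fos reached 10 CPM in KPC490 alone, which leaves 13 of 45. Dusp6, a phosphatase that dampens ERK, had 389 CPM in KPC490 and 78.8 to 251 CPM elsewhere. Spry4, a feedback inhibitor of receptor signalling, had 53.7 CPM in KPC490 and 9.69 to 27.8 CPM elsewhere. Dusp9 had 31.0 CPM in KPC490 and 2.23 to 24.5 CPM elsewhere, and Etv4, an ETS factor downstream of ERK, had 70.5 CPM in KPC490 and 28.5 to 67.7 CPM elsewhere.

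Among lists of at least 10 genes, those with the largest shares of genes lowest in KPC490 were those of collagens, NF-kB, chemokines, YAP/TAZ and NRF2. Of all genes, 11.8% were lowest and 15.3% highest in KPC490. Of 41 NRF2 target and glutathione genes KPC490 was lowest for 12 and highest for 1 (Gpx4), with a median of -0.31. Ephx1, an epoxide hydrolase, had 12.1 CPM in KPC490 and 18.3 to 107 CPM elsewhere, and Gclm, a subunit of the enzyme that limits glutathione synthesis, had 84.7 CPM in KPC490 and 122 to 167 CPM elsewhere. Of 32 YAP/TAZ genes it was lowest for 10 and highest for 3, with a median of -0.05. Amotl2, a target of the pathway, had 49.0 CPM in KPC490 and 55.6 to 144 CPM elsewhere. Of 24 NF-kB subunits and targets KPC490 was lowest for 8 and highest for 1 (Icam1), with a median of -0.24. Most of the 8 were subunits or adaptors a little below the next line: Rela, the main activating subunit, had 73.1 CPM in KPC490 and 79.4 to 92.1 CPM elsewhere. Of 17 mesenchymal genes KPC490 was lowest for Vim, Sparc and Axl and highest for Tnc and Twist2, with a median of -0.28. Tnc and Twist2 both reached 10 CPM in KPC490 alone. Of 24 epithelial junction genes KPC490 was lowest for Cdh1 (298.4 CPM, against 399.8 to 767.0 CPM) and highest for Spint1, which likewise reached 10 CPM in KPC490 alone. For the other 22 it lay between, and the median of this list was 0.35. Keratins held no extreme, with KPC490 highest for 0 of 8 and lowest for 0 of 8. No Hox gene reached 10 CPM in any line.

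**Figure D3:**
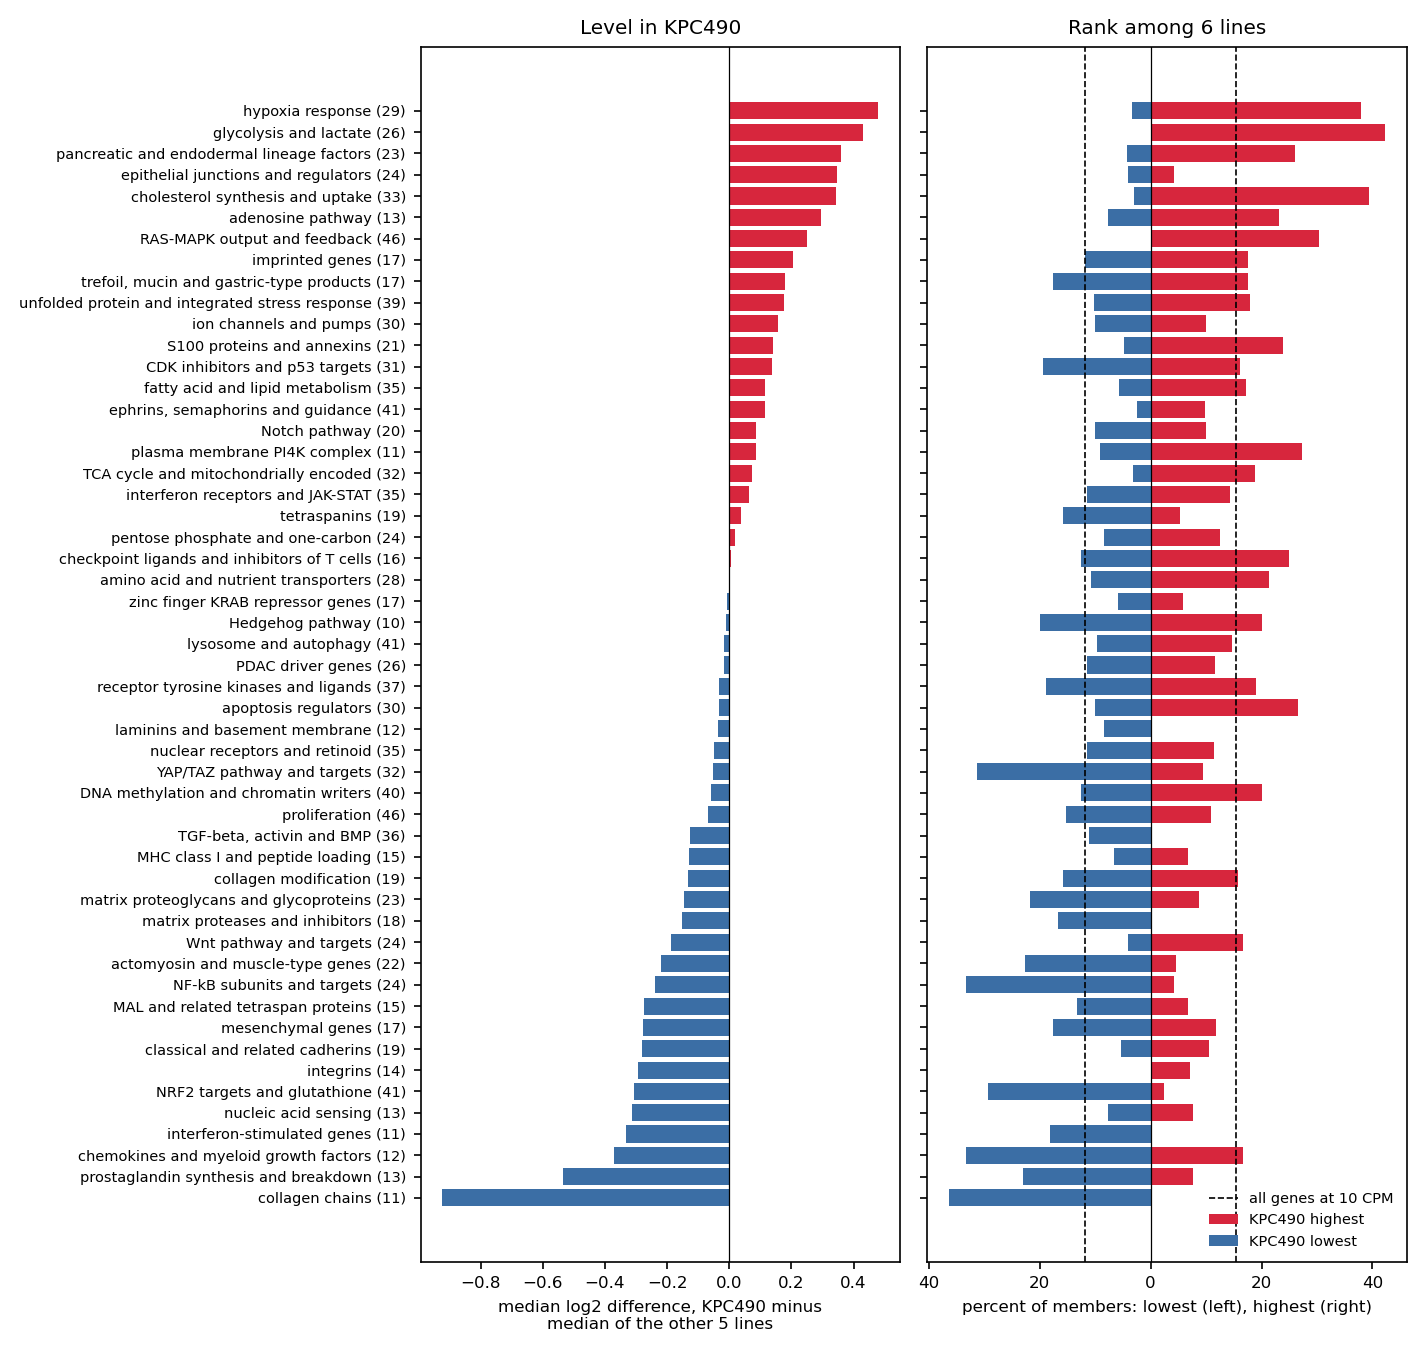
Left, the median log2 difference of each pathway list (at least 10 genes at 10 CPM, number in brackets) between KPC490 and the median of the other 5 lines. Right, the percent of its genes for which KPC490 was the highest (red) or the lowest (blue) of 6 lines, with dashed lines at the 15.3% and 11.8% of all genes. Hypoxia and glycolysis genes head the list and collagen chains end it at -0.92.

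The levels of KPC490 also differed by stretches of chromosome, as did those of other lines. Expressed genes were taken in order along each chromosome in 396 blocks of 25. KPC490 had 20 block medians at or above 0.5 log2 units and 6 at or below -0.5. These counts were 24 and 17 in KPC142, 17 and 2 in KPC180 and 18 and 10 in KPC469. In KPC630 they were 1 and 5, and in KPC850 0 and 20. The median difference of KPC490 from the other lines stepped abruptly on chromosome 15. Over the first 8 blocks, 200 genes from Selenop to Commd5, the median was 0.76 log2 units (1.70-fold), with block medians of 0.49 to 0.95. KPC490 was highest for 145 of these genes (72.5%) and lowest for 0. Over the 9 blocks that follow, 238 genes from Rpl8 to Itga5, the median was -0.44, with block medians of -0.65 to -0.28. Gene by gene, the last to stand high were Rpl8 (3474 CPM in KPC490, 1508 to 2150 CPM elsewhere) and 1110038F14Rik (34.2 CPM in KPC490, 17.5 to 25.2 CPM elsewhere). The next gene, Rbfox2, had 82.5 CPM in KPC490 and 97.3 to 200.6 CPM elsewhere. In the other lines the medians of the blocks on either side lay between -0.33 and 0.23. Over the whole first stretch the other lines had medians of -0.24 to 0.09. Over the whole second stretch KPC469 was lower than KPC490, with a median of -0.58, so the low second stretch was not particular to KPC490. The first stretch holds 6 of the 58 higher genes, Rims2, Fam84b, 9930014A18Rik, Ly6k, Tsta3 and Nrbp2, together with Myc, Sqle, Ndrg1, Efr3a and the Ly6 genes, and the second holds the lower genes Cby1, Cbx6 and Tns2.

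Chromosome 5 showed a second step. Over its first 20 blocks, 500 genes, the median of KPC490 was 0.04, and over the last 6 blocks, 171 genes from Tyw1 to Rfc3, it was 0.58 (1.5-fold), with KPC490 highest for 118 (69.0%). Rasa4, Tfr2, Gpc2, Tecpr1 and Cdx2 lie there. Chromosome 10 stood high along its length, with a median of 0.43 and KPC490 highest for 287 of 475 genes (60.4%), and chromosome 6 had a median of 0.35 with 214 of 472 (45.3%). Nepn and Lilr4b lie on chromosome 10, but so do Col6a1 and Col6a2, which were far lower. Chromosomes 8 and 1 were low, at -0.34 and -0.26, and against KPC630 alone the medians were 0.0030 and 0.024, so KPC630 had the same low level. Chromosomes 19 and 3 were low too, at -0.22 and -0.17, with KPC490 lowest for 34.7% and 29.5% of their genes. Against KPC630 alone their medians were -0.092 and -0.14. The stretches were picked after their medians were seen, and the number of DNA copies was not measured, so its part in these levels was not tested.

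**Figure D4:**
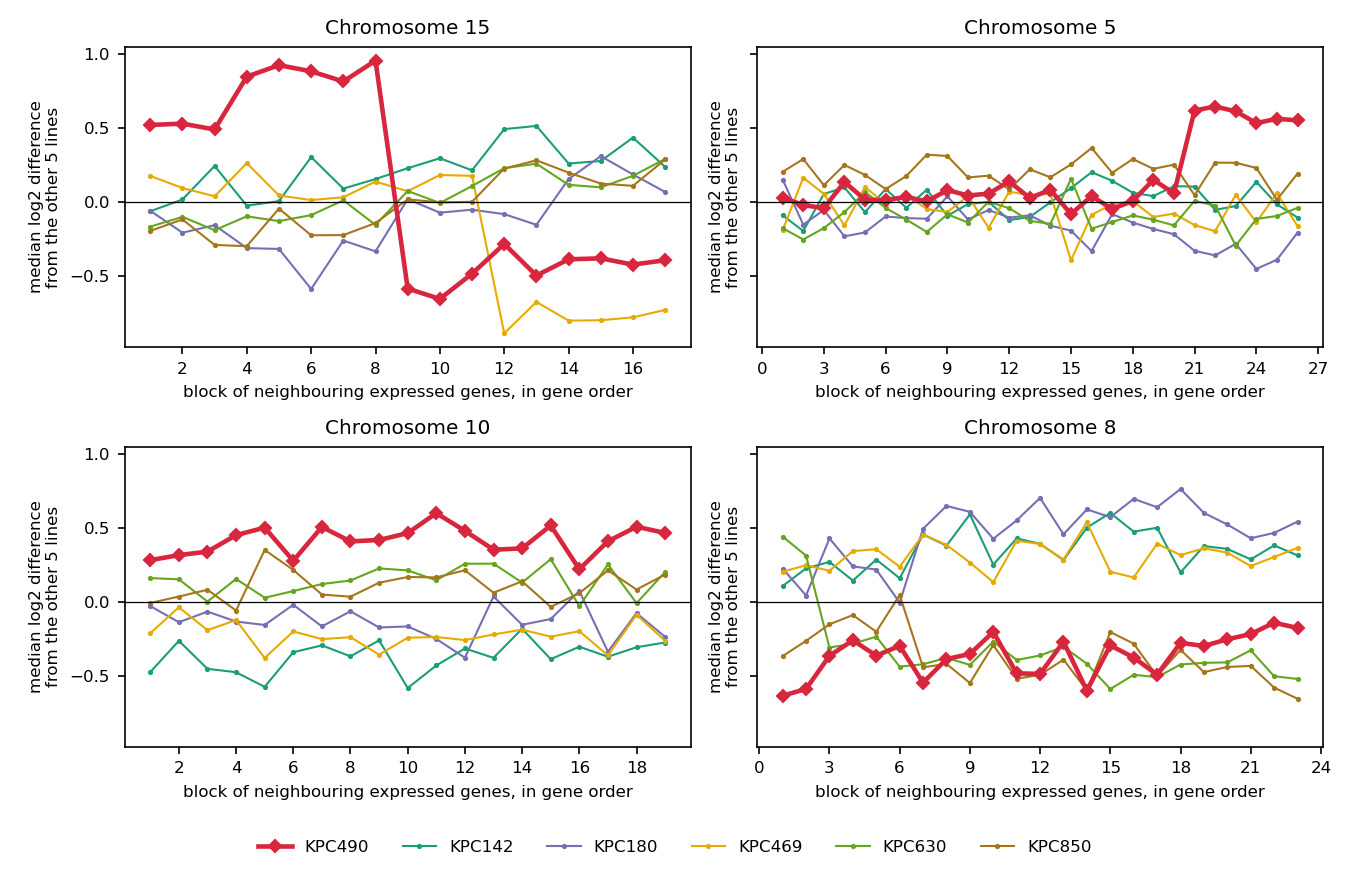
Median log2 difference of each line from the other 5, in blocks of 25 expressed genes (the last of each chromosome is longer) in gene order along chromosomes 15, 5, 10 and 8. Red diamonds are KPC490 and thin lines the other lines. KPC490 steps on chromosome 15 between block medians of 0.95 and -0.58 and rises at the end of chromosome 5, is high along chromosome 10, and is low along chromosome 8, as KPC630 and KPC850 are over most of it.

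The raised stretches of chromosomes 15 and 5 with the whole of chromosomes 10 and 6 hold 12.9% of the genes in blocks, 18 of the 58 higher genes (31.0%) and 4 of the 47 lower ones (8.51%). These stretches were picked for their high medians in KPC490, so the choice itself favours higher genes in them, and the shares test nothing. They also hold 5 of the 11 glycolysis genes highest in KPC490 (Hk2, Pfkl, Tpi1, Gapdh and Tigar), 4 of the 11 hypoxia genes, 6 of the 14 RAS-MAPK genes (among them Dusp6, Braf and Myc), 2 of the 13 cholesterol genes (Sqle and Lss) and each of the 3 YAP/TAZ genes highest there. Outside these stretches KPC490 was highest for 6 of 20 glycolysis genes, 7 of 23 hypoxia genes, 8 of 38 RAS-MAPK genes and 11 of 31 cholesterol genes, and the list medians were 0.36, 0.40, 0.19 and 0.33. The share of all genes outside the stretches for which KPC490 was highest was not computed. It lies below the 15.3% of all genes, since inside the stretches the shares were 45.3% to 72.5%. When each line's block medians were taken off, 18 of the 21 genes higher at 4-fold and 44 of the 58 at 2-fold were still past the limit, as were 8 of the 10 lower at 4-fold and 37 of the 47 at 2-fold. Car8, Galnt18 and Nrbp2 left the 4-fold group (Galnt18 also with the prior count alone). Fam84b, Tecpr1, Tsta3, Fut2, Rnf103 and Tmem158 were among the 14 that left the 2-fold group. On the lower side Gsn and Emilin2 left the 4-fold group (Emilin2 also with the prior count alone). Cbx6, Nav1, Mxra8 and Tff2 were among the 10 that left the 2-fold group. With the prior count alone, 41 of the 47 were past 2-fold, and Mxra8, Tff2, Cby1, Clic5, Gpr176 and Slc7a2 had already left. Nepn, Ly6k, Efr3b, Cd274, Col6a1 and Col6a2 stayed past 4-fold.

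Some of the 105 genes were close neighbours. Col6a2 and Col6a1, Tff2 and Tff1, and Fam84b and 9930014A18Rik had no expressed gene between them, and the genes of each pair lay on one side. Tff1 and Pde9a had 1 gene between them and lay on opposite sides, Pde9a being higher (20.1 CPM in KPC490, 0.546 to 8.09 CPM elsewhere, 2.48-fold, or 5.88-fold without KPC630). Fam84b and 9930014A18Rik overlap on opposite strands with 100% identity over the shared bases. Exons of 16 of the 105 genes overlap another gene at 1 CPM or more, and 13 share at least 90% identity over at least 200 bases with one. Cd274 and Ly6k overlap the minor transcripts AC119228.1 (1.22 CPM in KPC490) and Gm17189 (1.05 CPM in KPC490), and Mest overlaps Copg2 (76.5 CPM in KPC490). Tgm2 overlaps Rprd1b on the opposite one. The kit keeps strand, but whether the counting used it is not given in the sources used here, so these pairs are uncertain.

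Of the 105 genes, 69 had a promoter sequence in the RefSeq table. In the 250 bases before the start site, the ratio of CG dinucleotides to the number predicted was under 0.4 in 13 of 33 higher genes (39.4%) and 15 of 36 lower genes (41.7%), against 926 of 8091 genes at 10 CPM (11.4%). The median ratio was 0.52 in higher genes, 0.48 in lower genes and 0.76 in all. A TATAAA motif was found in 7 higher genes (21.2%) and 4 lower genes (11.1%), against 5.91% of all. TGANTCA, the AP-1 letters, was in 1 higher gene and 5 lower genes (13.9%), against 3.94%, and GGAATG, which TEAD factors bind, in 0 higher genes and 5 lower genes, against 10.2%. Motifs were searched on both strands: the others were ACGTG and GCGTG (hypoxia-inducible factors), TGACGTCA (CREB and ATF), CCGGAAG (ETS), GGGCGG (SP and KLF), CCAAT (NF-Y) and CANNTG (E-box, which can overlap other motifs). GCGTG was in 15 higher genes (45.5%) and 8 lower genes (22.2%), against 48.3% of all, and GGGCGG in 15 (45.5%) and 15 (41.7%), against 63.4%. The same shares were not computed for genes set apart in another line.

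The line that came nearest to KPC490 varied by gene. For the 58 higher genes the next highest line was KPC630 in 18, KPC850 in 17, KPC469 in 10, KPC180 in 7 and KPC142 in 6. For the 47 lower genes the next lowest was KPC630 in 13, KPC142 in 12, KPC180 in 10, KPC850 in 7 and KPC469 in 5. The lines nearest over all genes, KPC630 and KPC850, were thus also the most frequent runners-up among the higher genes.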

How the data were processed

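The 6 libraries, 1 per line, were made with a stranded mRNA kit from total RNA, per the labels' protocols. GRCm39 is the build given in the submitters' processing notes, with RSEM 1.3.3, STAR 2.7.10b and Trimmomatic 0.36 as tools and no roles or order. For 56953 genes the authors deposited expected counts, which are estimates in which reads that fit several transcripts are shared out; 5.28% to 5.66% of the values in a library had a fractional part, and they were rounded to whole numbers. Each column matched 1 line by name, and 0 columns were left unused.

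CPM were computed on library totals adjusted by TMM factors (0.986 to 1.01, edgeR 4.0.16 in R 4.3.3, from 11531 genes). Folds set KPC490 against the highest or lowest other line. A library at 0 was given a floor of 3 counts where all other lines, or KPC490, were at 0, and the fold is then a bound. Intervals are exact conditional binomial at 95% and cover counting error only. List and block values use log2 CPM with a prior count of 2, as differences from the median of the other 5 lines. With 1 library per line no edgeR or DESeq2 test was made; DESeq2 1.42.0 gave size factors as an alternative. Symbols (52029 identifiers), gene order and overlaps came from GENCODE vM21 on GRCm38, used for no coordinate; similar transcripts were found with BLAST 2.17.0, and promoters come from RefSeq on GRCm38.p6. The calculations were tested on simulated data.

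The genes, the 58 pathway lists and the 12 lists of other cell types (2224 of 2237 symbols found) were chosen with earlier results of these data known. The text names the 5 marker genes, each gene at 4-fold, the leading genes of the 2-fold group by level and by fold, list members at 2-fold, the genes next to each limit and family members. List members named below 2-fold, and the chromosome stretches, were chosen after their values were seen. Alternatives covered the scaling, the rounding, the floor, the CPM filter, the interval, the baseline, the prior count and each other line left out. A few genes that the naming rule covers are counted but not reported here by name, and the plot of 2- to 4-fold genes leaves them out.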

Additional observations from a re-analysis of the deposited data

How the results depend on the processing

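Of the counts of genes past a limit, those with library totals alone (21 and 10 at 4-fold, 56 and 45 at 2-fold, higher first), DESeq2 size factors, unrounded values or a floor of 1 count stayed within 1.5 times the values reported. With other filters, which let in more or fewer genes, the counts moved: at 5 CPM 90 genes were higher at 2-fold, at 20 CPM 10 were higher at 4-fold and 35 at 2-fold, and with no CPM filter 72 and 37 were higher and lower at 4-fold and 221 and 201 at 2-fold. Asking that the near bound of the counting interval pass the limit left 4 lower genes at 4-fold and 18 at 2-fold. Leaving out each other line in turn sets KPC490 against fewer libraries, which can only keep or raise the counts. It gave 24 to 45 higher and 14 to 17 lower genes at 4-fold and 75 to 106 and 62 to 73 at 2-fold. Chosen after seeing the data, a prior count of 2 gave 20 and 8 at 4-fold and 58 and 41 at 2-fold, and taking off block medians gave 20, 9, 55 and 42. Of medians at least 0.2 log2 units from 0, those of 3 lists changed sign against the mean of the other lines: interferon-stimulated genes 0.022, classical cadherins 0.074 and acinar genes -0.27; the cause was not tested. Against KPC630 alone those of chromosomes 1 (0.024) and 8 (0.0030) did. Among smaller medians, chromosomes 4 (-0.028), 14 (-0.053) and 18 (0.20) also changed sign against KPC630. The fold of each of the 105 genes stayed within its counting interval under the scaling, rounding and floor alternatives. With a line left out, the fold left its interval in 56 cases, against 469 in which it did not. A fold can change only when the line that set it is left out, 1 case for each of the 105 genes. Most of the 469 were therefore fixed in advance. No scaling moved the median of all genes by over 0.01. Depth limits the genes with under 20 counts in KPC490. No paired analysis was possible because each line has 1 library, so the lines share fewer than 2 replicate numbers.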
